A study of Mus musculus with 22 samples.

Results

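The metallothionein genes of the mouse, Mt1, Mt2, Mt3 and Mt4, were followed across 6 cell populations sorted from colon crypts. The family was chosen by the level of Mt3 in secretory progenitors, which stood out, so the levels of Mt3 are given as a description with no test, and tests are given for Mt1, Mt2 and Mt4. All 4 members are among the 24421 genes of the count tables and among the 22781 genes that passed the filter on low counts. Mt3 and Mt4 passed it through the cell types in which they were counted, so Mt4 is tested in a fit without that filter.

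Metallothioneins are short, cysteine-rich proteins that bind zinc and copper and can take up cadmium. Mt1 and Mt2 are made in most tissues and are induced through the metal-responsive transcription factor Mtf1, and also by glucocorticoids and oxidants. Mt3 is known best from brain, where it was named growth inhibitory factor, and Mt4 from stratified squamous epithelium such as skin and tongue.

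The genes lie side by side on the plus strand of chromosome 8 (GRCm38, the assembly of mm10), in the order Mt4 (94137197 to 94139031), Mt3 (94152607 to 94154146), Mt2 (94172664 to 94173568) and Mt1 (94179082 to 94180327). They span 43.1 kb. The gap between Mt4 and Mt3 is 13575 bases, that between Mt3 and Mt2 is 18517 bases, and that between Mt2 and Mt1 is 5513 bases. The annotation holds 3 coding transcripts for Mt1, 2 for Mt2, 3 for Mt3 and 1 for Mt4. For each gene the one with the most exons, and the longest of these, was used. It has 3 exons in each gene, and a length of 549 bases for Mt1, 511 for Mt2, 536 for Mt3 and 398 for Mt4. The stretches compared next and the values per kilobase rest on that transcript. No stretch of 50 bases of the Mt1, Mt3 or Mt4 transcript recurs in a transcript of another gene, so reads of these members at least that long can be told from those of their relatives. For Mt2, 45.5% of such stretches lie in Gm45774, an antisense gene that overlaps it, and the reads were counted without regard to strand, so Mt2 and its antisense partner cannot be told apart.

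The 250 bases before the RefSeq start of Mt1, Mt2 and Mt3 are shown because Mt1 and Mt2 had their highest means in stem cells and Mt3 was not counted there. Capitals mark the core of the metal response element (MRE, TGCACNC or TGCGCNC on either strand), the site bound by Mtf1, and the antioxidant response element (ARE, TGACNNNGC on either strand). The sequences are RefSeq's, on GRCm38.p6.
Mt1 (chr8:94178839-94179088, plus strand): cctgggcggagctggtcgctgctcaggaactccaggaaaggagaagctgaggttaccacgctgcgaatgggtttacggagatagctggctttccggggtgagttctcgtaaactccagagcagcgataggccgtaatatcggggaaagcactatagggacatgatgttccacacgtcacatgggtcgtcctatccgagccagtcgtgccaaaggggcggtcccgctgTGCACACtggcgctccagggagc
Mt2 (chr8:94172368-94172617, plus strand): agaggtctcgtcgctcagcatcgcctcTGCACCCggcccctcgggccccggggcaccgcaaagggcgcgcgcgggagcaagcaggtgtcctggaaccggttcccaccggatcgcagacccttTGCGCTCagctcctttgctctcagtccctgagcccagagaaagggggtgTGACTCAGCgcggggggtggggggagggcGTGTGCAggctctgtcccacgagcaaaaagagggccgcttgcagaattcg
Mt3 (chr8:94152357-94152606, plus strand): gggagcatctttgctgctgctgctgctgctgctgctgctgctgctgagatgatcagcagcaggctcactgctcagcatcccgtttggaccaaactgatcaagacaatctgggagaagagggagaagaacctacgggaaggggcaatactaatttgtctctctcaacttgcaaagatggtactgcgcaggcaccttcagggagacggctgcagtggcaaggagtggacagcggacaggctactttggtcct
The Mt2 window holds 3 MRE cores and 1 ARE, the Mt1 window holds 1 MRE core, the Mt4 window holds 1, and the Mt3 window holds neither motif. No marked motif overlaps another. Of 32851 promoter windows of the same length, 21.4% hold at least 1 MRE core, 1.26% hold at least 3 and 10.2% hold at least 1 ARE. A match is a match of letters. Mt1 and Mt2 have further annotated starts downstream of the RefSeq start, and the bases before those starts were not searched. The counts of motifs therefore hold for the searched windows only and are not counts for the whole promoters of Mt1 and Mt2.

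The cells came from the whole colon, caecum to rectum, of wild-type male C57BL/6N mice of 5 to 7 weeks without treatment. They were released with EDTA and mechanical force and sorted as live Epcam+ cells that lacked Cd31 and Cd45. Stem cells (Stem) were Cd44highest, Cd24low and Ckit-, absorptive progenitors (AbsPro) had less Cd44, and SecPDG, a mix of secretory progenitors, deep crypt secretory cells and some goblet cells, was Cd44hi with medium Cd24 and Ckit by the labels. The text of the study instead gives SecPDG as Cd44Med, and Kit protein as detected in tuft cells alone. Tuft cells were Ckit+ and Cd24hi, enterocytes were Cd44low/- and Cd24-, and enteroendocrine cells (EEC) were Cd44low/- and Cd24+. There were 3 Stem, 3 AbsPro, 4 SecPDG, 5 Tuft, 5 Enterocyte and 2 EEC libraries, each from at least 2500 cells of independent sorts. The study gives a single mouse for each Stem and AbsPro library, and pooled mice for every library of the other cell types. Where those are compared with Stem or AbsPro, pooling and cell type cannot be told apart. A library is named here by cell type and number, as in Stem 1. In such sorted pools, fewer expressing cells and less RNA per cell cannot be told apart.

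Reads counted on genes numbered 15314543 to 22462518 in the Stem, AbsPro and SecPDG libraries, and 4122122 to 20892532 in the other 3 cell types. Reads outside annotated genes were 40.9% to 49.4% of the reads in Stem, AbsPro and SecPDG, 43.4% to 68.0% in Tuft, 66.8% to 83.1% in Enterocyte and 64.5% to 89.7% in EEC. Marker genes of the named cell types were set beside the gates. The summed normalized count of 7 tuft marker genes was 28164 to 75081 in Tuft and at most 9355 elsewhere, and that of 8 enteroendocrine markers was 601549 or more in EEC and at most 27881 elsewhere. The 9 goblet and deep crypt secretory markers summed to 839703 to 3303170 in SecPDG, but also to 816268 to 1208810 in Tuft, against 21778 to 35589 in Stem. They also summed to 91815 to 282366 in AbsPro, 237457 to 713602 in Enterocyte, and 37533 and 62277 in EEC. The level of secretory markers in Tuft and the other cell types stands beside the values of Mt3 there, and its part in them was not tested. The 8 absorptive markers summed to 67551 to 102996 in AbsPro and 51949 to 76736 in Enterocyte, against 12521 to 23176 in Stem, but EEC 2, at 137016, was the highest of the 22 libraries. Markers of cells that the gates should remove were low, yet mostly above stem cells in Tuft, Enterocyte and EEC. The 9 immune markers summed to 1522 to 3514 in Tuft, 394 to 1163 in Enterocyte and 664 to 2605 in EEC, against 156 to 209 in Stem. The 5 endothelial markers summed to 320 to 909, 526 to 1327 and 1349 to 2056 in these cell types, against 74.3 to 167 in Stem. The 7 markers of enteric glia and neurons summed to 220 to 439, 306 to 844 and 2106 to 4084, against 75.0 to 150 in Stem. The 6 stromal markers overlapped between Tuft (109 to 603) and Stem (35.7 to 192), and were 412 to 1178 in Enterocyte and 288 to 2072 in EEC. They also reached 1232 in AbsPro 3, against 55.8 in AbsPro 1 and 29.3 in AbsPro 2. In Tuft, Enterocyte and EEC no marker of the 4 lists was at 0, other than 1 immune marker in EEC. Tuft, Enterocyte and EEC are also cell types in which Mt1 or Mt2 was lower than in stem cells. The part in that of cells that the gates should remove was not tested. Reads outside annotated genes also reached their highest shares in these cell types, and the part of such reads in the marker sums was not tested. The 2 EEC libraries differed more from each other (Spearman rho 0.573 over genes) than any replicate pair of the other cell types (at least 0.866).

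Values are normalized counts, which are counts scaled by edgeR's TMM method (trimmed mean of M values) to a common library size. Averaged over the 22 libraries, Mt1 had 1243 normalized counts, Mt2 329, Mt3 61.7 and Mt4 7.45. Mt1 and Mt2 were counted in all 22 libraries, Mt3 in 17 and Mt4 in 9. Mt1 made up most of the family in every cell type, from a mean of 65.5% of its normalized counts in Tuft to 84.1% in Enterocyte.

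**Figure D1:**
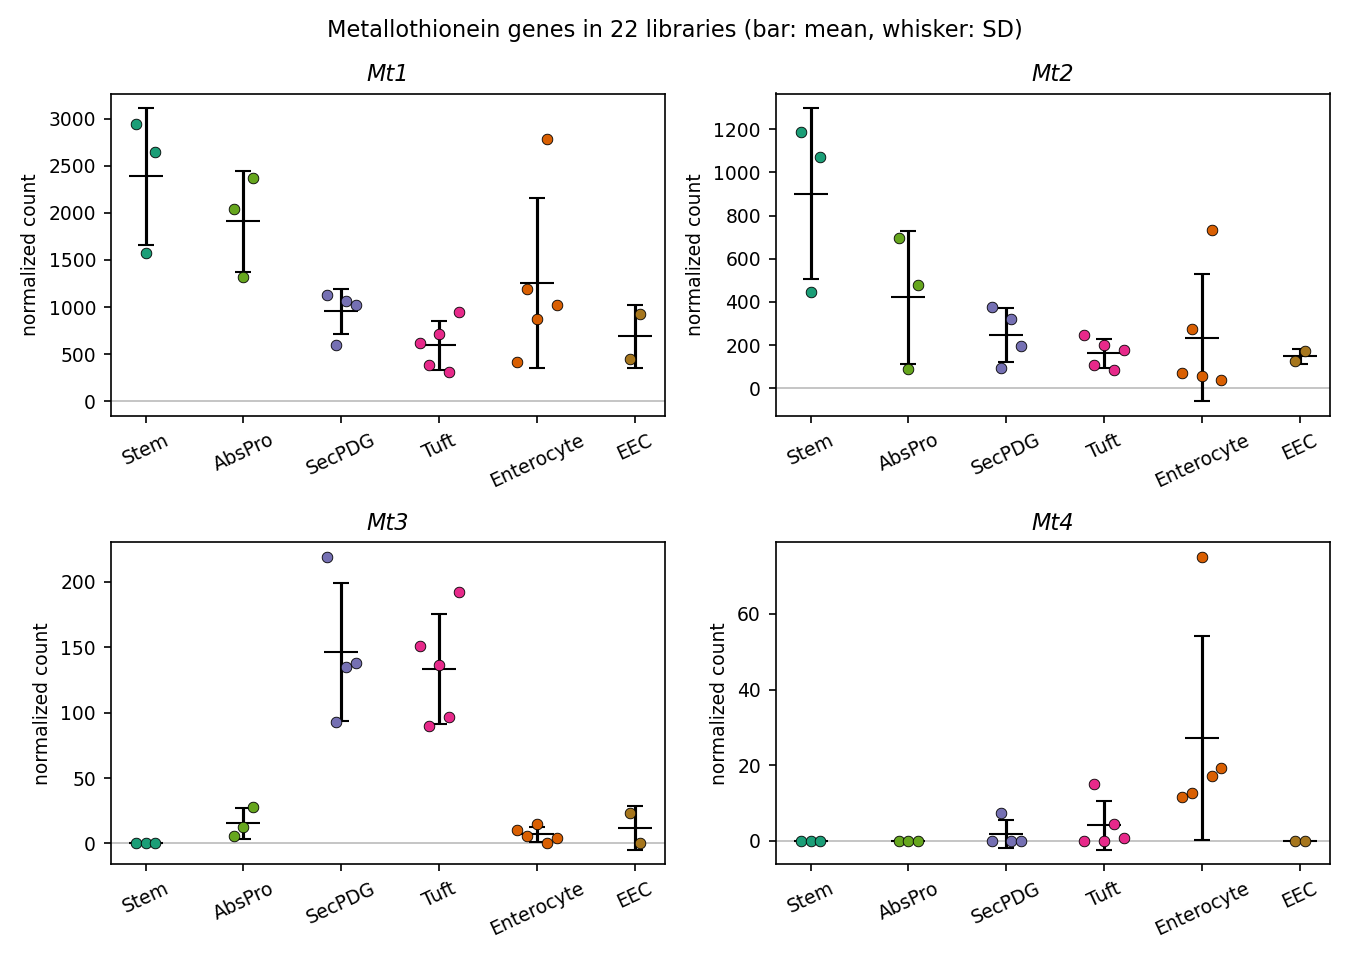
Normalized counts of Mt1, Mt2, Mt3 and Mt4 (vertical axes, each on its own scale) in the 22 libraries, by cell type. Each point is a library, bars are means and whiskers are SDs. Mt1 and Mt2 were highest in Stem, Mt3 reached 89.6 to 219 in SecPDG and Tuft and at most 28.1 elsewhere, and Mt4 was counted in every Enterocyte library but in no Stem, AbsPro or EEC library.

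Mt1, one of the 2 widely made members, had its highest mean in stem cells, and was called lower (adjusted p under 0.01) in tuft cells, by 3.96 times, and in EEC, by 3.37 times, where 4.23% and 9.14% of all genes were called lower. Mt2 was called lower in SecPDG, Tuft, Enterocyte and EEC, by 3.54 to 5.91 times, where 1.6% to 11.5% of all genes were. In Stem Mt1 stood at 2948, 1570 and 2645 normalized counts, and in AbsPro at 2037, 1321 and 2371. These cell types overlapped. In SecPDG it was 1128, 598, 1067 and 1025, in Tuft 618, 381, 719, 308 and 948, and in EEC 454 and 928. Every library of these 3 cell types lay below every Stem library. In Enterocyte it was 417, 1187, 873, 2789 and 1022. Enterocyte 4 stood at the level of stem cells, and the other 4 libraries lay below all 3 Stem libraries.

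Mt2, which binds the same metals as Mt1, had the larger coefficient of variation between libraries in 4 of the 6 cell types, and the smaller one in Tuft (40.9% against 43.5%) and EEC (22.6% against 48.6%). In Stem it had 1184, 447 and 1069 normalized counts, and in AbsPro 697, 88.7 and 476. In SecPDG it had 375, 94.5, 323 and 195, in Tuft 248, 107, 198, 85.1 and 176, and in EEC 125 and 172. All libraries of SecPDG, Tuft and EEC lay below all Stem libraries. In Enterocyte it had 70.2, 275, 58.9, 735 and 37.4, so that Enterocyte 4 again fell within the range of stem cells. For these and the other statements of overlap, the share of all genes that part likewise is not given, so they are descriptions.

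Each cell type was compared with stem cells to ask how far the level moved as cells left the stem compartment. Called means that edgeR's quasi-likelihood test gave an adjusted p (Benjamini-Hochberg) under 0.01 and that the gene averaged 50 or more normalized counts over the 22 libraries. Tuft cells were lower than stem cells in both genes. Mt1 fell by 1.99 ± 0.358 on the log2 scale (SE, adjusted p = 2.93e-05) and Mt2 fell by 2.46 ± 0.472 (adjusted p = 8.13e-05), each in 5 of 5 Tuft libraries. Both calls held under each of the 8 other settings tried and with each Stem or Tuft library left out. Of all genes tested, 4.23% were called lower in Tuft and 7.83% higher. Genes that averaged under 50 cannot be called, and among those at 50 or more these shares were 7.31% and 13.5%. Shares of all genes given for other comparisons also include genes that cannot be called.

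In SecPDG, Mt2 was called: it fell by 1.82 ± 0.471 on the log2 scale (adjusted p = 0.00624), and Mt1 was not, at -1.31 ± 0.370 (adjusted p = 0.0144). Lower calls took in 1.6% of genes and higher calls 3.38%. The 2 genes traded sides of the threshold with the setting. DESeq2's Wald test called Mt1 (adjusted p = 0.00875) and not Mt2 (adjusted p = 0.0747), and Mt2 lost its call without Stem 1, Stem 3, SecPDG 2, SecPDG 3 or SecPDG 4 (adjusted p 0.0122 to 0.0628).

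In Enterocyte, Mt2 was called and fell by 1.88 ± 0.454 (adjusted p = 0.000653), while Mt1 stood at -0.91 ± 0.348 (adjusted p = 0.0215) and was not called. The background was 11.5% called lower and 10.7% called higher. Enterocyte 4 carried much of the spread. Without it Mt1 was called lower, at a log2 fold change of -1.44 (adjusted p = 0.00045), as it was without Stem 2 (-1.33, adjusted p = 0.00391), and Mt2 stood at -2.97 (adjusted p = 4.85e-06). DESeq2 did not call Mt2 here (-1.60, adjusted p = 0.0421).

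In EEC both genes were called. Mt1 fell by 1.75 ± 0.492 (adjusted p = 0.00292) and Mt2 fell by 2.56 ± 0.695 (adjusted p = 0.00216), each in 2 of 2 libraries. Here 9.14% of genes were called lower and 10.8% higher. Without EEC 1 neither was called (adjusted p = 0.0332 for Mt1 and 0.0247 for Mt2), and Mt1 also lost its call without Stem 1 (adjusted p = 0.0128) and Mt2 without EEC 2 (adjusted p = 0.0105). Without EEC 2 the log2 fold change of Mt1 was -2.40. DESeq2's Wald test called neither (adjusted p = 0.0267 for Mt1 and 0.0585 for Mt2). With 2 libraries these values rest on the spread shared with the other cell types.

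In AbsPro neither gene was called. Mt1 differed from Stem by -0.32 ± 0.388 (adjusted p = 0.952, unadjusted p = 0.410) and Mt2 by -1.08 ± 0.480 (adjusted p = 0.432, unadjusted p = 0.0282), both below the Stem mean in 3 of 3 libraries. DESeq2 called neither. Few genes were called at this step, 0.0922% lower and 0.496% higher.

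**Figure D2:**
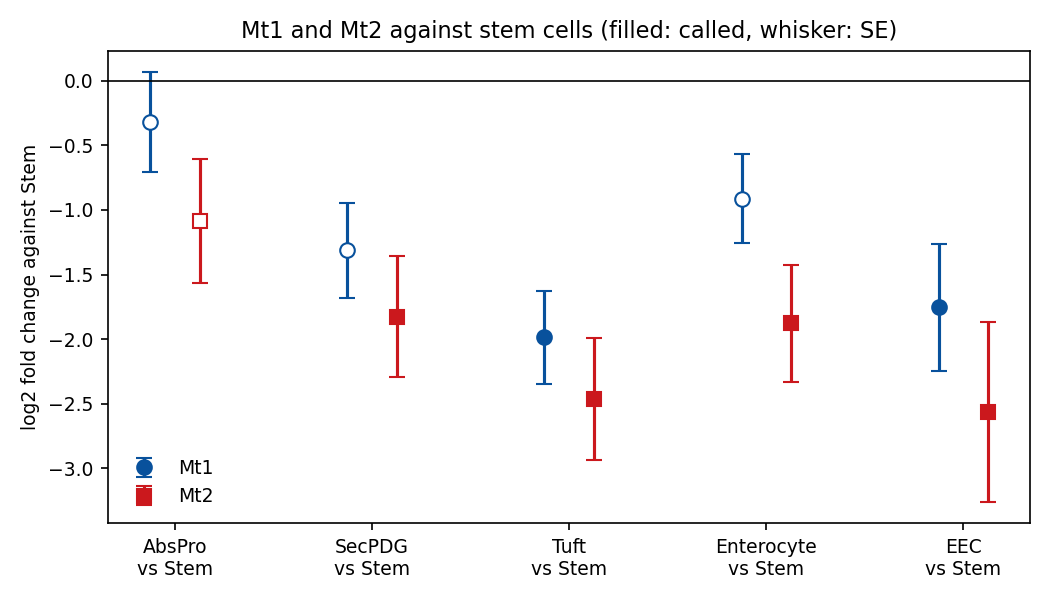
Log2 fold change of Mt1 and Mt2 (vertical axis) in 5 cell types against Stem, with the SE as whiskers and filled symbols for called values. All 10 values lie below 0. Both symbols are filled for Tuft and EEC, and the symbol of Mt2 alone is filled for SecPDG and Enterocyte.

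The scaling of libraries moved these values but not their sign. Among the 13188 genes that averaged 50 or more normalized counts, the median log2 fold change of Enterocyte against Stem was -0.30 with TMM, 0.35 with DESeq2's size factors and 0.24 with library totals, and that of EEC was -0.30, 0.48 and 0.14. Relative to this median, Mt1 in Enterocyte stood at -0.61, -0.81 and -0.77 and Mt2 at -1.58, -1.78 and -1.73. In EEC, relative to the median, Mt1 stood at -1.45, -1.61 and -1.58 and Mt2 at -2.26, -2.43 and -2.40. With the same scalings, the share of calls that were higher went from 48.3% to 75.6% and 70.9% in Enterocyte and from 54.2% to 77.3% and 63.7% in EEC. In SecPDG it went from 67.9% to 67.3% and 44.1%.

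Among the 10 pairs of cell types without Stem, Mt1 was called in 1. Mt2 was called in 0 of them by edgeR, with 2 at an unadjusted p under 0.05, and in 0 by DESeq2. Mt1 was lower in Tuft than in AbsPro, with a log2 fold change of -1.66 ± 0.361 (adjusted p = 0.000621, 5 of 5 libraries), a pair in which 8.13% of genes were called. The call held in each of the other 8 settings and with any 1 library of the pair left out. Mt1 was 2.11 times as high in Enterocyte as in Tuft, above the Tuft mean in 4 of 5 libraries, but missed the call (log2 fold change 1.07 ± 0.334, adjusted p = 0.0201). That pair was called with DESeq2's Wald test (1.34, adjusted p = 0.000242), with DESeq2's size factors (1.36, adjusted p = 0.000647), with library totals (1.42, adjusted p = 0.0006), and without Tuft 5 (1.33, adjusted p = 0.00689) or Enterocyte 1 (1.09, adjusted p = 0.00819). Without Enterocyte 4 it stood at 0.55. For Mt2 the lowest adjusted p was 0.0425, for Tuft against AbsPro (unadjusted p = 0.00851). Enterocyte 4 also decided the comparison of Enterocyte with AbsPro, in which Mt1 (-1.12, adjusted p = 0.0056) and Mt2 (-1.88, adjusted p = 0.00295) were both called lower once it was left out. Mt1 was called lower in EEC than in AbsPro without EEC 2 (-2.07, adjusted p = 0.00627).

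The share of genes called in the other pairs was 3.72% for SecPDG against AbsPro, 16.2% for Enterocyte against AbsPro and 18.3% for EEC against AbsPro. It was 3.36% for Tuft, 23.4% for Enterocyte and 21.3% for EEC, each against SecPDG. It was 8.44% for Enterocyte against Tuft, 9.29% for EEC against Tuft and 4.7% for EEC against Enterocyte. In the order of mean Mt1 levels, which was Stem, AbsPro, Enterocyte, SecPDG, EEC and Tuft, no neighbouring pair passed the test (adjusted p 0.144 to 0.952). Of these neighbours, AbsPro and Enterocyte were told apart without Enterocyte 4, and Enterocyte and SecPDG with library totals (log2 fold change 0.95, adjusted p = 0.00802). Without Enterocyte 4 the difference of Enterocyte from SecPDG was -0.13, so the place of Enterocyte above SecPDG rests on that library. The order for Mt2 was Stem, AbsPro, SecPDG, Enterocyte, Tuft and EEC, and no neighbouring pair in it passed either (adjusted p 0.417 to 0.937).

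Mt1 and Mt2 varied together between libraries. Across the 22 libraries, Pearson's r of their log2 levels was 0.767 and Spearman's rho 0.776, and r was 0.720 without the 2 libraries farthest from the median of Mt1, which were Tuft 4 and Stem 1. Once each library was set against the mean of its cell type, r was 0.757. The libraries share cell types and differ in depth, so these are descriptions.

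The ratio of Mt1 to Mt2 counts within a library does not depend on scaling, and its mean was lowest in stem cells. It was 2.49, 3.51 and 2.47 in Stem, 3.01, 6.33, 3.31 and 5.26 in SecPDG, 2.49, 3.55, 3.62, 3.62 and 5.40 in Tuft and 3.64 and 5.39 in EEC. It was wider in AbsPro, at 2.92, 14.9 and 4.98, and widest in Enterocyte, at 5.94, 4.31, 14.8, 3.80 and 27.3. All 5 Enterocyte ratios and both EEC ratios lay above all 3 Stem ratios, while those of AbsPro, SecPDG and Tuft overlapped with Stem. On the log2 scale the mean ratio was 1.48 ± 0.288 in Stem (SD, n = 3) and 3.05 ± 1.23 in Enterocyte (SD, n = 5). The highest ratios came with low Mt2 counts, 109 in AbsPro 2, 51 in Enterocyte 3 and 27 in Enterocyte 5. Enterocyte 4, the library with the most Mt1 and Mt2 of its group, had the lowest ratio of that group.

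**Figure D3:**
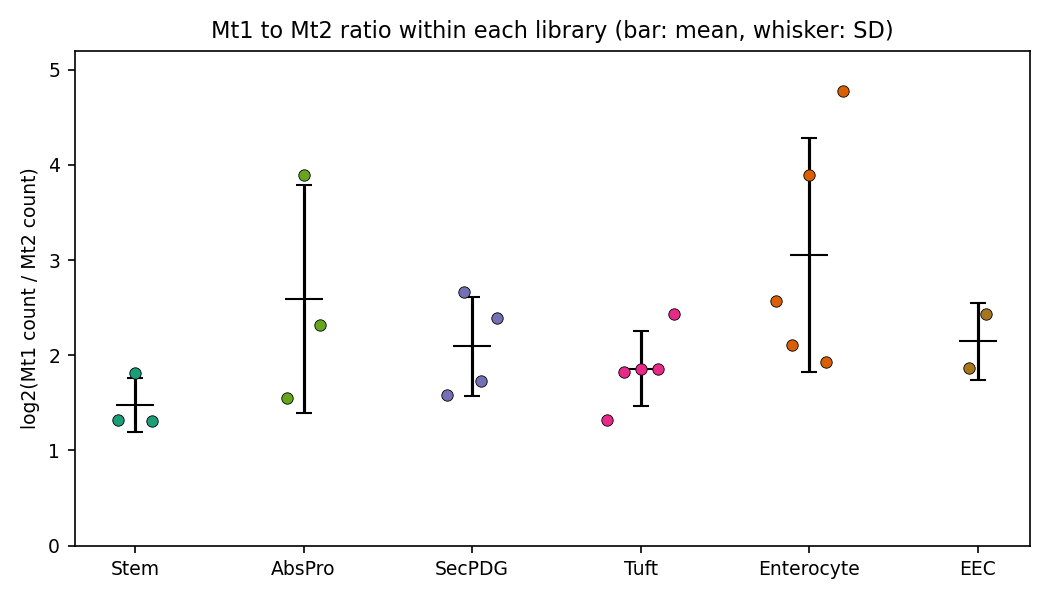
Log2 ratio of the Mt1 count to the Mt2 count (vertical axis) in each of the 22 libraries, by cell type. Points are libraries, bars are means and whiskers are SDs. Means run from 1.48 in Stem to 3.05 in Enterocyte, and AbsPro and Enterocyte have the widest spread.

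Mt3, the member known from brain, was counted mainly in SecPDG and Tuft, 2 populations of the secretory lineage. It was not counted in any of the 3 Stem libraries. It was 219, 93.2, 135 and 138 normalized counts in SecPDG and 151, 89.6, 137, 96.6 and 192 in Tuft. SecPDG and Tuft overlapped, with means of 146 ± 52.8 (SD, n = 4) and 133 ± 42.1 (SD, n = 5). In AbsPro it was 5.65, 12.2 and 28.1, in Enterocyte 10.2, 5.74, 15.0, 0 and 4.15, and in EEC 23.5 and 0. Each SecPDG and Tuft library lay above every library of the other 4 cell types, and the nearest values across that gap were 89.6 in Tuft 2 and 28.1 in AbsPro 3. SecPDG had chosen the family, so no test is given for any of these values.

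A count of 0 over the Stem libraries allows up to 3 counts, or 0.689 normalized counts. Against that floor Mt3 was at least 212-fold higher in SecPDG, at least 193-fold higher in Tuft and at least 22.2-fold higher in AbsPro, or at least 12.95-fold without AbsPro 3. The floor covers counting error only. The mean in SecPDG was 1.10 times that of Tuft. With DESeq2's size factors and with library totals the SecPDG mean was 138 and 129, and the Tuft mean 137 and 134.

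Per kilobase of transcript, Mt3 stood at 273 ± 98.4 normalized counts in SecPDG and 249 ± 78.5 in Tuft. On the same scale Mt2 stood at 483 ± 248 and 319 ± 130 in these cell types, and Mt1 at 1739 ± 440 and 1083 ± 472. Mt3 therefore made up 8.84% to 12.7% of the family's normalized counts in the SecPDG libraries and 12.9% to 19.5% in the Tuft libraries. Elsewhere its share was at most 3.90%. Both cell types in which Mt3 was high had lower means of Mt1 and Mt2 than stem cells, and their family totals were 1350 ± 400 and 895 ± 343 normalized counts, against 3288 ± 1120 in Stem.

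Mt4, the member known from squamous epithelium, was counted in enterocytes at a low level. It had 11.7, 12.6, 75.1, 17.1 and 19.4 normalized counts in the Enterocyte libraries, from 8, 11, 65, 15 and 14 reads. It was 0 in every Stem, AbsPro and EEC library. In SecPDG it was counted in SecPDG 2 alone, with 6 reads, and in Tuft with 12 reads in Tuft 2, 4 in Tuft 4 and 1 in Tuft 5. The Enterocyte mean of 27.2 ± 27.0 (SD, n = 5) was at least 39.4-fold higher than the floor of 3 counts in Stem. Without Enterocyte 3 the mean was 15.2 and the bound 22.1-fold.

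The mean of Mt4 over all libraries was under 50, so it could not be called. In edgeR's quasi-likelihood test with no filter on low counts, over 23674 genes, its adjusted p was 0.0022 for Enterocyte against Stem. It rose above 0.01 without Stem 2 or Stem 3 (0.0174 in both) and without Enterocyte 3 (0.0153). In the other 4 Enterocyte libraries Mt4 lay between 11.7 and 19.4. Summed levels of 9 squamous epithelium markers, such as Krt5 and Trp63, were 362 to 970 in Enterocyte, 9.94 to 87.6 in Stem and 172 to 1887 in EEC, where Mt4 was 0. No marker of the 9 was at 0 across the Enterocyte libraries. Their part in the Mt4 values was not tested. Enterocyte and EEC also held the highest shares of reads outside annotated genes, and the part of such reads in these sums was not tested.

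Low counts were set beside the density of reads on 1459 olfactory, vomeronasal and bitter taste receptor genes. Most are not known from colon epithelium, but some are known from tuft or enteroendocrine cells, and reads of such genes would raise this density. At that density Mt3 would have had 0.646 reads in all over the SecPDG libraries and 5.47 over the Tuft libraries, where 608 and 617 were counted. In AbsPro 53 reads stood against 0.466. In Enterocyte, 28 reads of Mt3 stood against 10.3, and in EEC 13 stood against 3.85, so the distance was smaller there. The 113 reads of Mt4 in Enterocyte stood against 7.67, and in single Enterocyte libraries the count was 4.51 to 30.1 times that density. In Tuft the 17 reads of Mt4 stood against 4.06.

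**Figure D4:**
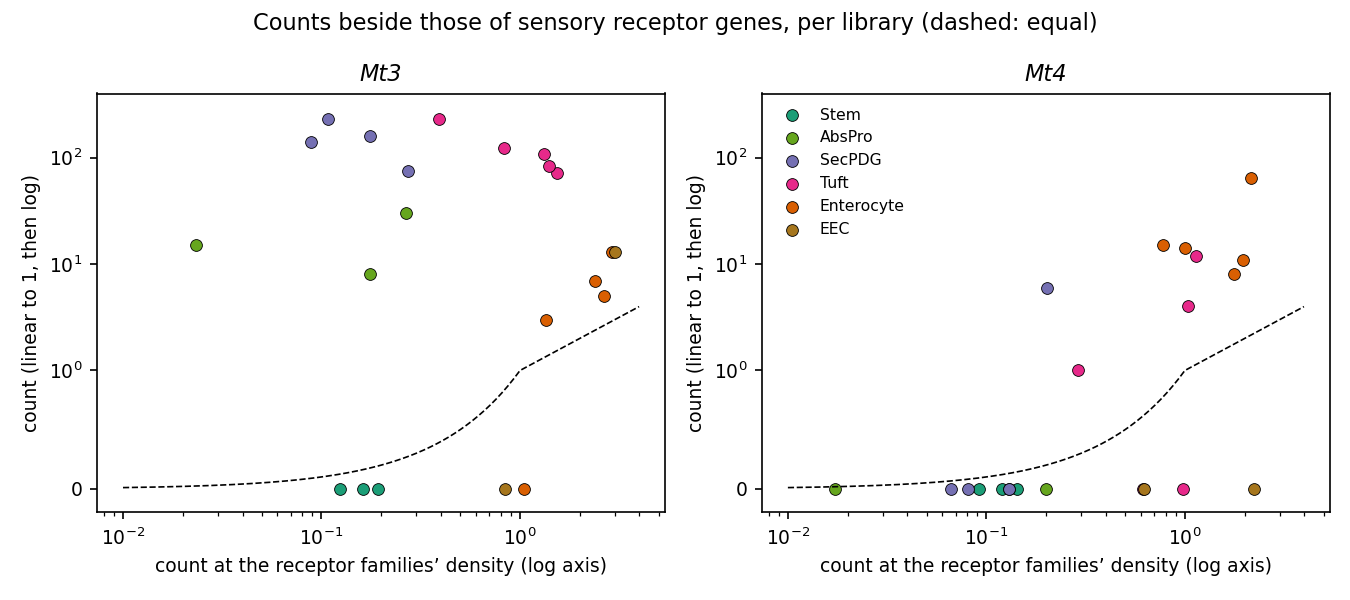
Counts of Mt3 and Mt4 (vertical axes, linear up to 1 and logarithmic above) in each library, against the count each would have at the read density of 1459 sensory receptor genes (horizontal axes, logarithmic). Points are libraries and the dashed line marks equal values. For Mt3 all SecPDG, Tuft and AbsPro libraries lie above the line, and for Mt4 all Enterocyte libraries do.

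The genes whose levels across the 22 libraries were most like those of each member were listed among 13187 others, by Pearson's r of log2 levels. These values are descriptions across libraries that share cell types. For Mt1 they were Pvrl3 (r = 0.910), which encodes the adhesion protein nectin-3, Nr3c1 (0.873), the glucocorticoid receptor, Cth (0.871), which makes cysteine from cystathionine, Gss (0.859), glutathione synthetase, and Lad1 (0.857), which encodes a protein of epithelial anchoring filaments. Nr3c1 averaged 2230 ± 371 normalized counts in Stem, 2048 ± 275 in AbsPro, 905 ± 94.4 in SecPDG and 699 ± 146 in Tuft, and 1164 ± 461 in Enterocyte. Gss averaged 4349 ± 343 in Stem and 1002 ± 327 in Tuft, the lowest of the 6 cell types. For Mt2 the list was Mapk7 (0.795), a MAP kinase, Mt1 (0.767), Hdac11 (0.756), a histone deacetylase, Ammecr1l (0.750) and Frmd4a (0.734).

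For Mt3 the most alike was B3gnt6 (r = 0.957), the enzyme that builds the core 3 glycan of colonic mucins. Next came Spdef (0.917), a transcription factor of goblet cells, Gfi1 (0.915), a transcriptional repressor of the secretory lineage, 1700020L24Rik (0.913) and Ccl9 (0.909), a chemokine. B3gnt6 averaged 1983 ± 167 normalized counts in SecPDG and 2003 ± 738 in Tuft, and at most 209 elsewhere. Spdef averaged 6398 ± 569 in SecPDG and 3951 ± 1086 in Tuft, against 130 ± 95.9 in Stem. Mt3 itself ran against Mt1 (r = -0.57) and Mt2 (r = -0.34). With library totals in place of TMM, 4 of the 5 genes stayed on the list of Mt1, 2 of 5 on that of Mt2 and 4 of 5 on that of Mt3.

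**Figure D5:**
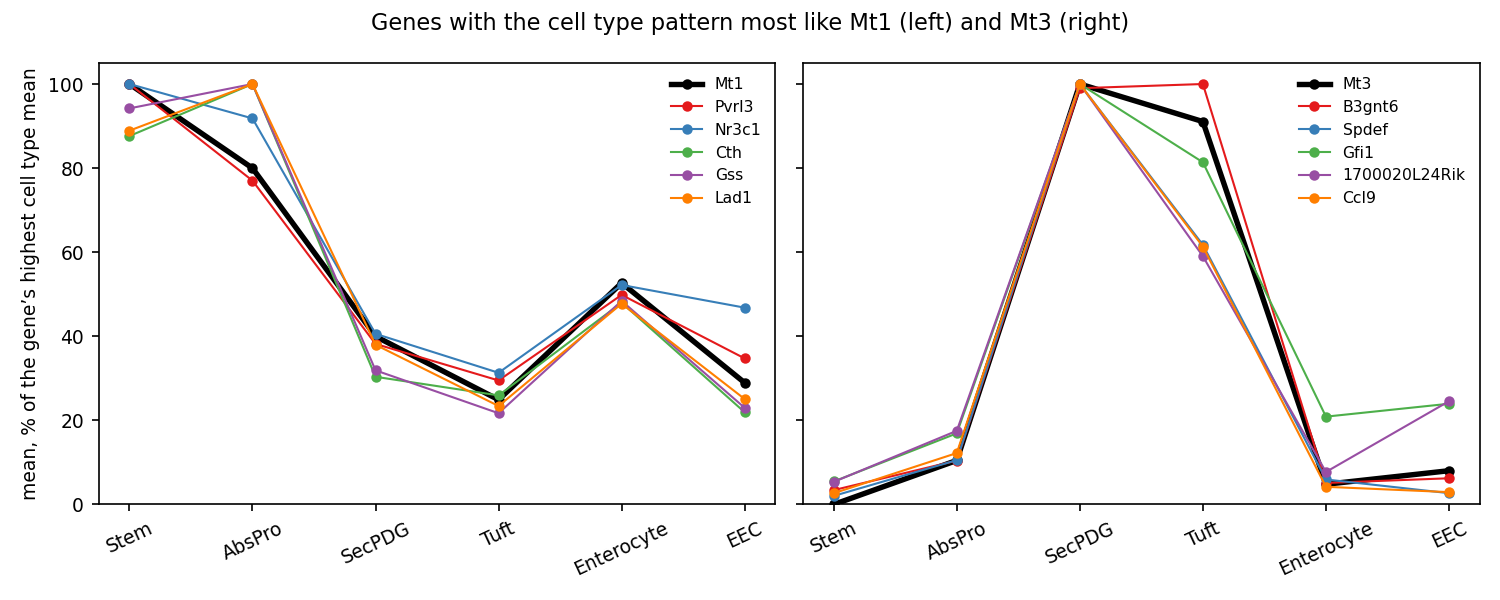
Mean level in each cell type as a percent of the gene's own highest cell type mean (vertical axis), for Mt1 and the 5 genes most like it (left) and for Mt3 and the 5 genes most like it (right). Points are cell type means and lines only join the points of a gene. The left genes are highest in Stem or AbsPro and lowest in Tuft or EEC, and the right genes are highest in SecPDG or Tuft.

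Mtf1, the factor that induces Mt1 and Mt2 when zinc rises, was not called in any comparison with Stem. Its mean was 478 ± 15.9 normalized counts in Stem and 394 to 519 in the other cell types (adjusted p 0.619 to 1). Slc30a1, the zinc exporter that Mtf1 also induces, had 379 ± 69.3 in Stem, 611 ± 107 in AbsPro, 288 ± 53.9 in SecPDG, 276 ± 104 in Tuft, 504 ± 144 in Enterocyte and 562 ± 608 in EEC. It was not called in any comparison with Stem (adjusted p 0.218 to 0.7095). Unlike Mt1 and Mt2, its mean was above that of Stem in AbsPro, Enterocyte and EEC.

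A list of 40 metal-handling genes, mainly of zinc, copper and iron, also held the manganese exporter Slc30a10 and the selenium-binding protein Selenbp1. Both were among the genes called lower in SecPDG and in Tuft. Of the 40 genes, 39 were tested. In AbsPro edgeR called 0 of them, with 5 at an unadjusted p under 0.05, and DESeq2 called 1, Slc31a1. In SecPDG 3 were called higher (7.69%, beside 3.38% of all genes) and 3 lower (7.69%, beside 1.6%). In Tuft 3 were called higher (7.69%, beside 7.83%) and 6 lower (15.4%, beside 4.23%). In Enterocyte 2 were called higher and 2 lower (5.13% each), under the 10.7% and 11.5% of all genes. In EEC 3 were called higher (7.69%, beside 10.8%) and 5 lower (12.8%, beside 9.14%). A call needs a mean of 50 or more. Among all genes of that level, 5.84% were called higher and 2.76% lower in SecPDG, and 13.5% and 7.31% in Tuft. In Enterocyte these shares were 18.5% and 19.8%, and in EEC 18.6% and 15.8%. The 12.8% of the list called lower in EEC stood under that last share. Of the list, 36 genes averaged 50 or more normalized counts. Their median log2 fold change was 0.29 in AbsPro, 0.14 in SecPDG, -0.02 in Tuft, -0.19 in Enterocyte and -0.42 in EEC, beside 0.04, -0.06, -0.09, -0.30 and -0.30 over all genes of that level. Among all genes tested, low ones included, the medians were 0, 0.00, 0.83, 1.17 and 0.68, beside 0.29, 0.19, 0.08, -0.16 and -0.24 over the 39. Single libraries moved these counts. The 3 lower calls in SecPDG came to 0 without Stem 2, SecPDG 1, SecPDG 2 or SecPDG 4 and to 1 without Stem 1, and the 3 higher calls in Tuft to 1 without Stem 1. The 2 lower calls in Enterocyte came to 4 without Stem 2 and to 6 without Stem 3, Enterocyte 1 or Enterocyte 4, and the 5 in EEC to 3 without EEC 1 and 13 without EEC 2.

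The genes called higher in SecPDG were 3 metal carriers. There Slc39a7 rose by 1.61 ± 0.351 on the log2 scale, Slc30a7 by 1.58 ± 0.329 and Slc39a11 by 1.44 ± 0.339. In Tuft Slc30a7 rose by 1.22 ± 0.317 and Slc39a13 by 1.54 ± 0.417, while Slc39a7 (0.99, adjusted p = 0.0205) and Slc39a11 (1.03, adjusted p = 0.0145) were not called. Slc30a7 loads zinc into the Golgi, and Slc39a7 and Slc39a13 release it from the endoplasmic reticulum and Golgi. The copper pump Atp7b rose in Tuft (93.3 ± 58.5 normalized counts), Enterocyte (150 ± 29.3) and EEC (209 ± 215), against 1.12 ± 1.95 in Stem. It ran from 15.9 to 171 in Tuft and was 57.0 and 362 in EEC. Over all genes tested, low ones included, the median log2 fold change in these 3 cell types was 0.83, 1.17 and 0.68. Atp7b was not set beside the density of receptor genes, and the part of reads outside annotated genes in its values was not tested. Steap4, a metalloreductase, rose in Enterocyte (168 ± 42.7) and EEC (212 ± 28.1), against 26.1 ± 12.05, and the zinc importer Slc39a6 rose in EEC (720 ± 126 against 109 ± 16.8).

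Other genes of the list fell beside Mt1 and Mt2. Slc39a5, a zinc importer, changed by -1.32 ± 0.333 on the log2 scale in SecPDG, -1.86 ± 0.327 in Tuft and -1.89 ± 0.464 in EEC. The manganese exporter Slc30a10 fell by 1.79 ± 0.478 in SecPDG and fell by 1.91 ± 0.466 in Tuft. Selenbp1, a selenium-binding protein, changed by -1.87 ± 0.462 and -2.39 ± 0.443 in these cell types, and its mean was 12036 ± 3154 in AbsPro against 3492 ± 726 in Stem. Sod1, the copper and zinc superoxide dismutase, fell by 1.47 ± 0.338 in Enterocyte, and Slc39a8 fell by 1.38 ± 0.330. In EEC the lower genes also held Steap3 (-2.25 ± 0.540) and Slc39a1 (-1.72 ± 0.448). Slc39a7 and Slc39a11 in Tuft and Selenbp1 in AbsPro (adjusted p = 0.0447) were not called by edgeR. The other gene changes in this paragraph and the one before are calls of its quasi-likelihood test (adjusted p 1.71e-06 to 0.00874).

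Of 10 oxidative stress genes, 5 were called lower in Tuft (Nfe2l2, Nqo1, Gclm, Gsr and Srxn1), 4 in Enterocyte, 3 in EEC and 1 in SecPDG. These are 50%, 40%, 30% and 10% of the list beside 4.23%, 11.5%, 9.14% and 1.6% of all genes. All 10 averaged 50 or more normalized counts, and of all genes of that level 7.31%, 19.8%, 15.8% and 2.76% were called lower. Slc7a11 was called higher in SecPDG and Tuft by edgeR and not by DESeq2. DESeq2 called 6 of the 10 lower in Tuft, 4 in Enterocyte, 3 in EEC and 2 in SecPDG. It called Hmox1 higher in Enterocyte and in EEC. In AbsPro edgeR called 0 of the 10, with 0 at an unadjusted p under 0.05, and DESeq2 called 0. Of 6 glucocorticoid genes, Nr3c1 was called lower in SecPDG, Tuft and Enterocyte, Fkbp5 was lower in Tuft, and Zbtb16 was higher in Tuft, Enterocyte and EEC. Here 1 gene is 16.7% of the list, beside shares of all genes of 1.6% to 11.5%. Among genes that averaged 50 or more these shares were 2.76% to 19.8%. DESeq2 did not call Nr3c1 in Enterocyte. It also called Fkbp5 in SecPDG, Zbtb16 in AbsPro and SecPDG, and Per1 in EEC. Of the 6 glucocorticoid genes, 1 was at 0 in every Stem library. Of 11 genes that tissue handling induces, such as Fos and Egr1, 5 were called higher in Enterocyte (45.5%, beside 10.7% of all genes), and 4 higher (36.4%, beside 10.8%) and 1 lower (9.09%, beside 9.14%) in EEC. Among genes that averaged 50 or more, 18.5% were called higher in Enterocyte, and 18.6% higher and 15.8% lower in EEC. In Tuft, SecPDG and AbsPro edgeR called 0 of the 11 handling genes, with 4, 2 and 3 at an unadjusted p under 0.05, and DESeq2 called 2, 0 and 0. Their summed level was 8567 to 12857 in Stem and 4814 to 7999 in Tuft. The part of these genes in the Mt1 and Mt2 values was not tested.

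The nearest genes on both sides were read from the same fit. Bbs2, a gene of cilia, lies next to Mt4 and was not called in any comparison with Stem (194 ± 91.3 in Stem, 88.3 to 182 in the other means, adjusted p 0.111 to 0.957). On the side of Mt1 the nearest annotated gene is the long non-coding RNA Gm39228, which has no value here. Nup93, a nuclear pore gene and the nearest counted protein-coding gene on that side, was called lower in Enterocyte (log2 fold change -1.64 ± 0.299, adjusted p = 1.70e-05) and in EEC (-1.91 ± 0.431, adjusted p = 0.000297), and was not called in Tuft (-0.90 ± 0.284, adjusted p = 0.0141), SecPDG or AbsPro.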

How the data were processed

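RNA of sorted mouse colon crypt cells was sequenced as 100 bp paired reads in 22 libraries of 6 cell types, which were taken from the deposited labels. Per the submitters' processing notes and the methods, the authors aligned reads to mm10 with STAR 2.5.2a and counted them on UCSC genes with HTSeq 0.6.1p1 without regard to strand. The deposited values are raw counts per gene, and the 5 entries that name no gene (reads outside genes, ambiguous or not unique) were kept out of library sizes and tests. Depth was 4122122 to 22462518 counts on genes per library, and low counts in the shallow Enterocyte and EEC libraries are the least precise.

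The test was edgeR's (4.0.16, in R 4.3.3), in 1 fit of all libraries by cell type, with filterByExpr, TMM factors, the quasi-likelihood F statistic (legacy = FALSE) and Benjamini-Hochberg adjustment over 22781 genes within each pair of cell types. SEs are the absolute log2 fold change over the root of F. The script was tested on simulated data. Alternatives were DESeq2 1.42.0, its size factors or library totals in edgeR, no filter, no minimum mean, a fit of 2 cell types alone, a replicate term, each library left out, and the legacy quasi-likelihood method, which was added after the values were seen. Likeness used log2 CPM with a prior count of 2. Transcript lengths came from the GENCODE vM21 annotation and promoter windows from RefSeq.

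The members and lists were chosen with earlier results of these data known. Named genes were the 4 members, Mtf1, Slc30a1, up to 3 called metal-handling genes per direction with the largest change, the 5 genes most like each member and the neighbours of the cluster. Gene names outside this rule in the stress lists were chosen after their values were seen. The 15 splicing, local splicing variation and polyadenylation tables hold no metallothionein entry and were not used; some of their columns are the authors' own comparisons. Files of SecPDG and Tuft carry a different name form from the other 4 cell types, so any difference this marks cannot be told apart from those cell types. Replicates are from independent mice or pools and sorts.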

Additional observations from a re-analysis of the deposited data

Results flagged for a closer look

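Of 15 sets of 4 or 5 libraries examined for a value far from the rest (the 4 members and the Mt1 to Mt2 ratio in SecPDG, Tuft and Enterocyte), 2 held one, and chance alone gives about 5% of sets. Mt4 had 75.1 normalized counts in Enterocyte 3, where the next Enterocyte library had 19.4 and the lowest 11.7. Mt4 had 7.46 normalized counts in SecPDG 2, from 6 reads, and 0 in the other 3 SecPDG libraries. With 3 values at 0, a single read would have set that library apart, so this one follows from the zeros. Enterocyte 4, with the highest Mt1 and Mt2 of its group, did not pass the same rule.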

How the results depend on the processing

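Of 148 refits of Mt1 and Mt2 against Stem, 115 kept direction and side of the threshold, and none changed direction. Those of Tuft and AbsPro all did so. Mt1 in SecPDG gained its call with DESeq2's Wald test (-1.29), DESeq2's size factors (-1.28), library totals (-1.48) and a fit of 2 cell types alone (-1.23), and Mt2 there lost it with DESeq2 (-1.79), its size factors (-1.78) and the legacy quasi-likelihood method (-1.86). Mt2 in Enterocyte lost its call with DESeq2 (-1.60), its size factors (-1.43), library totals (-1.49) and the legacy method (-1.93). In EEC, Mt1 lost its call with DESeq2 (-1.15), its size factors (-1.14), the legacy method (-1.79) and the 2 cell types alone (-1.53), and Mt2 with DESeq2 (-1.88), its size factors (-1.95), library totals (-2.26), the legacy method (-2.60) and the 2 cell types alone (-2.34). With each library left out, the value ran from -2.08 to -1.52 for Mt2 in SecPDG, -2.97 to -1.62 for Mt2 in Enterocyte, -1.44 to -0.73 for Mt1 in Enterocyte, -2.40 to -1.52 for Mt1 in EEC and -3.00 to -2.32 for Mt2 in EEC, where 1 EEC library is assumed to vary like the other groups. With no minimum mean Mt4 in Enterocyte against Stem would be called (adjusted p = 0.00153), but there it passed the filter on low counts through its Enterocyte counts, so nothing rests on that value. Over the other settings the adjusted p of Mt4 was 0.000102 to 0.0120, and nothing rests on that range either, as most of those settings kept the filter. With no filter and each library left out, which was added after the values were seen, its adjusted p was 0.0019 to 0.0174. The labels tie no replicate number to a shared animal or day, so the numbers do not pair libraries. Of 44 same-numbered pairs, 14 had deviations correlated over 0.1 (median 0.00197), and 6 of 22 libraries correlated best with their own number. With the replicate block Mt1 was called in SecPDG (-1.46) and Enterocyte (-1.19), and the block changed no other call of Mt1 or Mt2 against Stem.

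Differences that were not called between cell types other than Stem turned sign as follows. Of these, Mt1 in Enterocyte against SecPDG was called with library totals (0.95, adjusted p = 0.00802), and the calls that other such pairs gained stand with those comparisons. Mt2 in Enterocyte against SecPDG was 0.19 with DESeq2, 0.35 with its size factors, 0.50 with library totals and 0.045 with the replicate block, and -1.14 to 0.21 with each library left out. Mt1 in EEC against SecPDG was 0.13, 0.14 and 0.049 with DESeq2, its size factors and library totals. Mt2 in EEC against Tuft was 0.39, 0.33 and 0.14 with these, 0.11 with the replicate block and -0.39 to 0.085 with each library left out. Leave-one-out ranges were -0.13 to 0.51 for Mt1 in Enterocyte against SecPDG, -0.51 to 0.84 for Mt2 in Enterocyte against Tuft, -0.41 to 0.49 for Mt1 in EEC against Tuft and -0.97 to 0.40 for Mt2 in EEC against Enterocyte.

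Counts of metal-handling genes called against Stem moved by more than 1.5 times as follows. Higher calls in AbsPro were 1 with DESeq2 and with the 2 cell types alone. Higher calls in SecPDG were 6 with DESeq2, 5 with its size factors and 7 with the 2 cell types alone, and lower calls were 0 with the legacy method and 0 to 2 with each library left out. Higher calls in Tuft were 6 with DESeq2, 6 with its size factors, 5 with library totals, 1 with the legacy method, 5 with the 2 cell types alone and 1 to 4 with each library left out, and lower calls were 3 with DESeq2, 2 with the legacy method and 10 with the replicate block. Higher calls in Enterocyte were 6 with DESeq2, 8 with its size factors, 5 with library totals, with no minimum mean and with the 2 cell types alone, and 1 with the legacy method, and lower calls were 4 with no filter, 8 with the replicate block and 2 to 6 with each library left out. Higher calls in EEC were 6 with DESeq2, 7 with its size factors, 5 with no minimum mean and 1 with the 2 cell types alone, and lower calls were 3 with its size factors, 0 with the 2 cell types alone and 3 to 13 with each library left out. The causes were not tested.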
